A study of Macaca mulatta with 5 samples.

Results

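Cytosolic ribosomal proteins are the protein components of the large and small ribosomal subunits. They were followed here as mRNAs in 5 RNA-seq libraries of rhesus macaque neural cells. Members were the rows of the deposited gene table whose symbol starts with RPL or RPS and a digit, or is RPLP0, RPLP1, RPLP2 or RPSA, without the RPS6K kinases. A member also had to have at least 20 reads in 1 library. Of 16970 rows in the table, 49 matched by symbol and 38 were kept, 25 for the large and 13 for the small subunit. The 38 rows stand for 34 proteins, since RPL19, RPL27, RPL35A and RPS29 each have 2 rows. The other 11 matching rows had at most 16 reads in any library and were not tested.

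The cells were neuroepithelial stem cells (NESC), grown from monkey embryonic stem cells in medium with 3 μM CHIR99021, 5 μM SB431542, 10 ng/ml bFGF and 1000 U/ml LIF. CHIR99021 inhibits the kinase GSK3 and SB431542 inhibits TGF-beta type I receptors. NESC were sequenced at passages 5, 24 and 36 (P5, P24 and P36), with 1 library each. Radial glial progenitor cells (RGPC, 1 library) were passage 36 cells grown for 7 days with all of these but CHIR99021. The neurons (1 library) were passage 36 cells kept for 13 days on laminin and gelatin in differentiation medium, which has none of these factors. The 3 NESC passages served as the replicates, and the labels do not say that they are separate lines. The p-values for RGPC and neurons therefore measure the spread between those 3 libraries, and the lone RGPC and neuron libraries are assumed to vary as much. Where P5 is set against P24 and P36, the spread comes from P24 against P36 alone. P5 is then a lone library, assumed to vary as much.

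A ribosome needs most of its proteins in equal numbers, and the mRNAs of ribosomal proteins are among the most abundant of a growing cell. Most of these mRNAs start with a 5′ terminal oligopyrimidine (TOP) tract, through which mTOR signalling controls their translation. MYC family factors are known to raise the transcription of ribosomal protein and ribosome assembly genes. In mammalian genomes, ribosomal protein genes have many processed pseudogenes, which are intronless copies that can share reads with their parent gene.

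The libraries held 5403437 to 7899991 reads on annotated genes. The summed FPKM (reads scaled to gene length and library size) of the neuron markers DCX, MAP2, TUBB3 and MAPT was 310 to 342 in NESC, then 695 in RGPC and 2072 in neurons. The summed FPKM of the cycling-cell markers MKI67, TOP2A and CCNB1 was 383 to 631 in NESC, then 474 in RGPC and 21.0 in neurons. For the NESC markers SOX2, NES, PAX6 and LIN28A, the sum was 778 to 1077 in NESC, then 945 in RGPC and 262 in neurons. NES and PAX6 were higher in RGPC, at 518 and 136 FPKM, than in any NESC library, at most 470 and 98.8. SOX2 and LIN28A were at 183 and 109 FPKM in RGPC. In neurons SOX2, NES, PAX6 and LIN28A were at 105, 114, 37.0 and 6.16 FPKM. The summed FPKM of the RGPC markers FABP7, SLC1A3, HES5 and SOX9 did not set RGPC apart. It was 1549 in P5, 1088 in P24, 232 in P36, 1419 in RGPC and 980 in neurons. FABP7 made up most of it, with 1505, 980 and 193 FPKM in NESC and 1199 in RGPC. SLC1A3, HES5 and SOX9 were higher in RGPC, at 56.6, 122 and 41.2 FPKM, than in any NESC library, at most 37.9, 65.4 and 4.85. SLC1A3 was highest in neurons, at 200 FPKM. The astrocyte markers GFAP and AQP4 summed to at most 1.96 FPKM in any library. All 3 cycling markers were at 1 FPKM or more in every library. The part of cycling cells in the results below was not tested.

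The share of reads on ribosomal protein rows was highest in NESC and lowest in neurons. The 38 rows took 2.18% of reads in P5, 2.41% in P24 and 1.84% in P36. They took 1.498% in RGPC and 0.946% in neurons. The 95% exact binomial intervals, which cover counting error only, ran from 1.49 to 1.51% in RGPC and from 0.938 to 0.954% in neurons. Both values lay below all 3 NESC values. In these bulk samples, fewer cells of a type and less RNA per cell cannot be told apart, and a share says nothing of the amount of RNA per cell. The shares are given without a test. By share of summed FPKM, the members stood at 5.57, 5.54 and 4.52% in P5, P24 and P36, and RGPC, at 3.31%, lay just below neurons, at 3.38%. RPL38 and the scaffold row of RPS29 had FPKM values that were very high for their reads. Without these rows, the FPKM shares were 4.52, 4.02 and 3.15% in the 3 NESC libraries, 2.47% for RGPC and 1.88% for neurons.

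**Figure D1:**
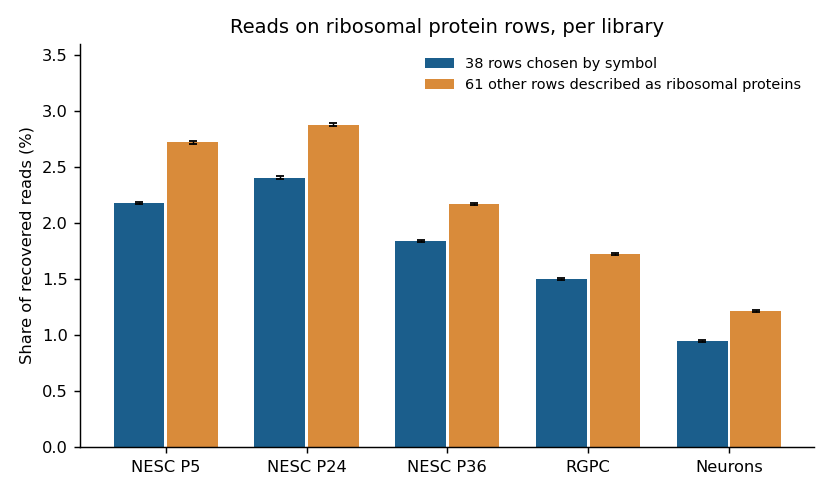
Share of recovered reads (%, y axis, from 0) in each library for the 38 rows chosen by symbol and for 61 other rows described in the table as cytosolic ribosomal proteins. Error bars are 95% exact binomial intervals; both sets were lowest in neurons, at 0.946% and 1.22%.

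A further 61 rows with at least 20 reads are described as cytosolic ribosomal proteins, but their deposited symbol field does not match the pattern. For RPL22 and RPS27A, for instance, that field holds another label. The 61 rows took 2.72, 2.88 and 2.17% of reads in P5, P24 and P36, 1.72% in RGPC and 1.22% in neurons. The order of the libraries was the same as in the 38 rows. Both sets together cover 73 proteins and took 5.28% of reads in P24 and 2.16% in neurons.

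Neurons had lower levels of most ribosomal protein mRNAs than NESC. By limma on log2(FPKM + 1), with Benjamini-Hochberg adjustment over 12178 genes, 21 of 38 members fell and none rose at an adjusted p of 0.05. Of all genes tested, 20.5% fell and 19.2% rose. The members' median log2 fold change was -1.08, against -0.02 for all genes, and 36 of 38 were negative, against 50.7% of all genes. The neuron value lay below all 3 NESC values in 35 of 38 members, against 42.5% of all genes. The count of 21 was 9 without P5, 4 without P24 and 10 after quantile normalization. Of all 12178 genes, 2168, 1146 and 2700 fell in the same settings, so the members lay nearer to the rate of all genes. The members' median stayed between -1.17 and -0.81 in the 16 alternatives run.

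**Figure D2:**
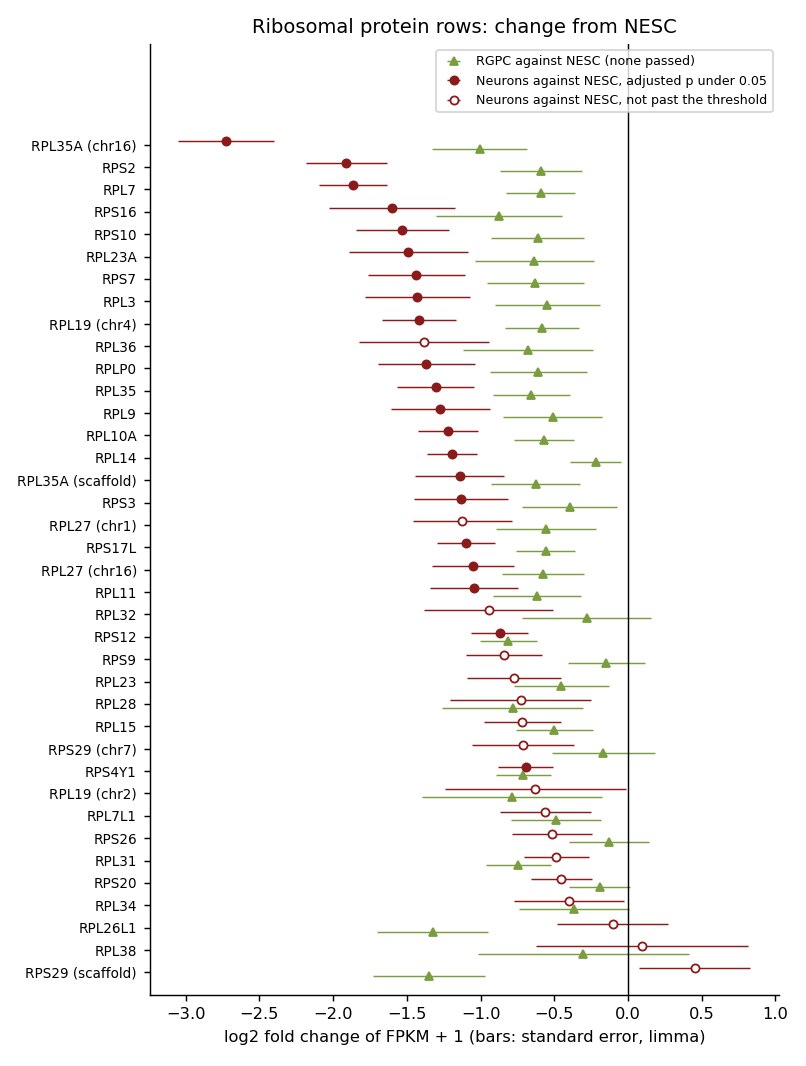
log2 fold change of FPKM + 1 (x axis) with its standard error from limma for each of the 38 rows, in neurons (circles) and RGPC (triangles) against the 3 NESC libraries. Filled circles mark the 21 rows past the threshold in neurons; all RGPC values lie below 0.

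The largest falls among well covered member rows were in RPS2 and RPL7. The RPS2 row, on chromosome 1 with a locus of 884 bases, was marked as a possible copy. RPS2, a small subunit protein near the mRNA entry, had 847, 892 and 618 FPKM in P5, P24 and P36, 515 in RGPC and 206 in neurons. Its log2 fold change in neurons was -1.91 ± 0.28 (SE, adjusted p = 0.00944 by limma). RPL7, of the large subunit, had 197, 178 and 142 FPKM in NESC, then 113 in RGPC and 46.1 in neurons, and fell by 1.87 on the log2 scale (SE 0.23, adjusted p = 0.00706 by limma). In both genes the 5 libraries did not overlap between groups: RGPC lay below the lowest NESC library and neurons below RGPC.

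RPL35A had the lowest fold change of all, but on a row with few reads. This chromosome 16 row, with a locus of 334 bases, had 40, 36 and 23 reads in NESC, then 14 in RGPC and 3 in neurons. Its FPKM was 46.8, 55.8 and 34.5 in NESC, then 21.8 in RGPC and 5.92 in neurons. The ratio of its read share in neurons to that in NESC was 0.114, with a 95% counting interval of 0.0231 to 0.343. The second RPL35A row, on an unplaced scaffold, had 1019, 997 and 687 FPKM in NESC, then 574 in RGPC and 401 in neurons, and fell by 1.14 on the log2 scale (adjusted p = 0.0395 by limma).

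RPS16 and RPS10, both of the small subunit, complete the lowest 5. RPS16 had 353, 326 and 179 FPKM in NESC, then 149 in RGPC and 89.6 in neurons, and fell by 1.60 on the log2 scale in neurons (SE 0.43, adjusted p = 0.0399 by limma). RPS10 had 1908, 2072 and 1405 FPKM in NESC, then 1159 in RGPC and 612 in neurons, and fell by 1.53 (SE 0.32, adjusted p = 0.0211 by limma). P36 was the lowest NESC library for both. RPS10 and RPL10A are given the same locus, chromosome 4 from 33988969 to 35438685, which 18 rows of the table share.

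Of the 5 members with the highest mean FPKM, RPL3, RPL9 and RPL34 ran from NESC over RGPC to neurons in falling order, while RPL38 and the scaffold row of RPS29, described further on, did not. RPL3, a large subunit protein near the peptidyl transferase centre, had 3841, 4625 and 3346 FPKM in NESC, then 2670 in RGPC and 1450 in neurons. It fell by 1.43 on the log2 scale in neurons (SE 0.36, adjusted p = 0.0338 by limma). RPL9 had 4302, 4485 and 3816 FPKM in NESC, then 2941 in RGPC and 1734 in neurons, and fell by 1.27 (adjusted p = 0.0389 by limma). The neuron level was 43.3% of the P36 level for RPL3 and 45.4% for RPL9. RPL34 had 5107, 4906 and 4501 FPKM in NESC, then 3750 in RGPC and 3667 in neurons. Its log2 fold change in neurons was -0.40 ± 0.37 (SE), which did not pass, although the neuron value lay below all NESC values.

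RPLP0 is the base of the ribosomal stalk, which recruits elongation factors, and it carries the RPLP1 and RPLP2 dimers. RPLP0 had 3591, 4306 and 3479 FPKM in NESC, then 2473 in RGPC and 1461 in neurons, and fell by 1.37 on the log2 scale in neurons (SE 0.33, adjusted p = 0.0311 by limma). RPLP1 had 668, 790 and 193 FPKM in NESC, then 265 in RGPC and 139 in neurons. RPLP2 had 1325, 1420 and 863 FPKM in NESC, then 951 in RGPC and 802 in neurons. For both dimer proteins P36 stood apart from P5 and P24 and lay below RGPC, and neither passed in neurons.

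RPL5 and RPL11 form, with 5S rRNA, the particle that binds the p53 regulator MDM2 when ribosome assembly fails. RPL11 had 2987, 3023 and 2502 FPKM in NESC, then 1846 in RGPC and 1368 in neurons, and fell by 1.05 on the log2 scale in neurons (SE 0.30, adjusted p = 0.0471 by limma). RPL5, whose row was named through its gene identifier, had 2127, 1876 and 1378 FPKM in NESC, then 1088 in RGPC and 821 in neurons. Its log2 fold change of -1.10 ± 0.33 (SE) missed the threshold (adjusted p = 0.0543 by limma). The groups did not overlap for either gene.

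On the small subunit, RPS6, the substrate of the S6 kinases, had 583, 586 and 584 FPKM in NESC on its chromosome 15 row, then 333 in RGPC and 239 in neurons. It fell by 1.29 on the log2 scale in neurons (SE 0.17, adjusted p = 0.00765 by limma). RPS19, which is mutated in Diamond-Blackfan anaemia, had 310, 362 and 271 FPKM in NESC, then 221 in RGPC and 172 in neurons, and fell by 0.86 (adjusted p = 0.0362 by limma). RPSA, also known as the laminin receptor, had 407, 433 and 387 FPKM in NESC, then 325 in RGPC and 215 in neurons, and fell by 0.93 (adjusted p = 0.0165 by limma). The deposited symbol field of these 3 rows does not hold these names, so the rows lie outside the symbol pattern.

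RPL10 and RPL39, both of the large subunit and encoded on the X chromosome, spread widely between NESC passages. RPL10 had 270, 289 and 116 FPKM in NESC, then 108 in RGPC and 93.4 in neurons, and RPL39 had 2599, 2075 and 1309 FPKM in NESC, then 1536 in RGPC and 1227 in neurons. Neither passed in neurons, with log2 fold changes of -1.15 ± 0.57 and -0.64 ± 0.45 (SE).

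RPS27A and FAU encode ribosomal proteins made as fusions with ubiquitin or a ubiquitin-like protein. RPS27A had 4375, 4337 and 3716 FPKM in NESC, then 2919 in RGPC and 2056 in neurons, with a log2 fold change of -1.01 that did not pass (adjusted p = 0.0725 by limma). FAU had 767, 857 and 723 FPKM in NESC, then 561 in RGPC and 471 in neurons, and fell by 0.73 (adjusted p = 0.0469 by limma).

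The members with the smallest change in neurons included RPS20 and RPS26. RPS20 had 878, 851 and 964 FPKM in NESC, then 785 in RGPC and 654 in neurons, a log2 fold change of -0.45 ± 0.21 (SE) that did not pass. After quantile normalization it was 0.0255. This RPS20 row, with a locus of 361 bases on chromosome 5, was marked as a possible copy. A chromosome 8 row of RPS20, outside the symbol pattern, had 1004, 1107 and 782 FPKM in NESC, then 792 in RGPC and 608 in neurons. RPS26 had 2104, 2334 and 2054 FPKM in NESC, then 1977 in RGPC and 1510 in neurons, a log2 fold change of -0.52 that did not pass. RPS26 made up 3.52 to 3.99% of the members' reads in NESC, then 4.91% in RGPC and 5.80% in neurons, whereas RPL3 made up 16.6 to 19.2% in NESC and 14.8% in neurons. Across the 38 members, Spearman's rho between the fold change in neurons and the mean FPKM was 0.05, as a description over rows that share the same 5 libraries.

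**Figure D3:**
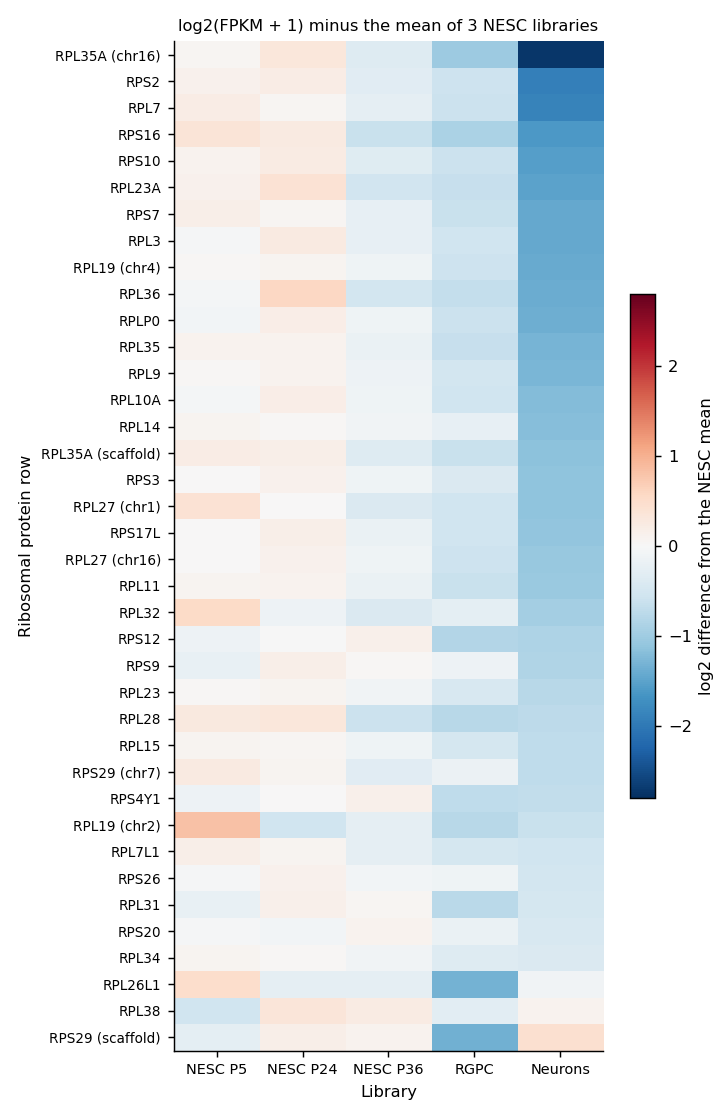
Colour gives log2(FPKM + 1) minus the mean of the 3 NESC libraries for each of the 38 rows (y axis, ordered by the neuron value) in each library (x axis). Blue is lower and red higher; the neuron column is blue in 36 rows and the RGPC column in all 38.

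RPL38 and the scaffold row of RPS29 had the 2 highest fold changes in neurons, and their FPKM values were very high for their reads. RPL38 had 8485, 15801 and 14801 FPKM in NESC, then 10190 in RGPC and 13434 in neurons, from 191, 89, 115, 59 and 65 reads. The scaffold row of RPS29 had 3342, 4523 and 4320 FPKM in NESC, then 1578 in RGPC and 5512 in neurons, from 48, 17, 22, 6 and 17 reads. The length implied by reads and FPKM was 1.28 bases for RPL38 and 0.881 bases for RPS29. FPKM per normalized count was 47.4 in P5 and 157 to 175 in the other libraries for RPL38. Their log2 fold changes in neurons, 0.10 and 0.45, did not pass and turned to -0.63 and -0.30 on the deposited normalized counts. On those counts, and with edgeR or DESeq2 on recovered reads, all 38 members were negative.

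The RGPC library, grown without CHIR99021, had lower values of the members than the NESC libraries, and none passed the test. RGPC had a negative log2 fold change against NESC in 38 of 38 members, against 41.3% of all genes, and the median was -0.59, against 0.11 for all genes. RGPC lay below all 3 NESC libraries in 34 of 38 members, against 24.6% of all genes. By limma 0 members passed, as did 0% of all genes, and 8 members had an unadjusted p under 0.05, against 14% of all genes. edgeR and DESeq2 also called 0 members; of all 12178 genes edgeR called 0, and DESeq2 called 133 higher and 146 lower. Quantile normalization moved the median of all genes from 0.11 to -0.01 and left 36 of 38 members negative, with a median of -0.43.

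The lowest members in RGPC were the scaffold row of RPS29 (log2 fold change -1.35), RPL26L1 (-1.32), the chromosome 16 row of RPL35A (-1.01), RPS16 (-0.88) and RPS12 (-0.81). The RPS12 member row, on chromosome 4, was marked as a possible copy. It had 414, 454 and 506 FPKM in NESC, then 260 in RGPC and 249 in neurons. On this row RGPC already lay at 51.3% of P36. Its fall in neurons passed the test (log2 fold change -0.87, adjusted p = 0.0263 by limma). A chromosome 10 row of RPS12, outside the symbol pattern and with 231 to 987 reads, had RGPC nearer to P36. Its FPKM was 590, 489 and 369 in NESC, then 343 in RGPC and 186 in neurons. Another chromosome 10 row, with 18 to 66 reads, had 49.8, 46.2 and 54.9 FPKM in NESC, then 32.6 in RGPC and 20.8 in neurons. The members nearest to 0 in RGPC were RPS26 (-0.13), RPS9 (-0.15), the chromosome 7 row of RPS29 (-0.17), RPS20 (-0.19) and RPL14 (-0.22). After quantile normalization RPS26 and RPS9 were at 0.0254 and 0.11.

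Between RGPC and neurons, 31 of 38 members were lower in neurons, against 54.3% of all genes, with a median log2 fold change of -0.56 against -0.10. The count of 31 was 28 with edgeR or DESeq2 and 26 after quantile normalization. RPL7 and RPL14 passed by limma as lower in neurons, 2 of 38 members against 8.89% of all genes, and 0 passed as higher, against 6.18% of all genes. RPL14 had 89.3, 87.2 and 79.5 FPKM in NESC, then 73.0 in RGPC and 36.7 in neurons, a log2 fold change of -0.97 ± 0.21 (SE) between RGPC and neurons (adjusted p = 0.0457 by limma). For RPL7 it was -1.27 ± 0.29 (SE, adjusted p = 0.0492 by limma). No member passed by edgeR, or by limma without P5 or without P24, where 904, 890 and 0 of all 12178 genes passed as lower. DESeq2 called RPL7 and RPS2 but not RPL14, and quantile normalization called RPL7, RPL14 and the chromosome 16 row of RPL35A, 3 members in all. The other 3 of the lowest 5 were the chromosome 16 row of RPL35A (-1.72), RPS2 (-1.32) and RPS10 (-0.92), and the highest 5 were the scaffold row of RPS29 (1.80), RPL26L1 (1.22), RPL38 (0.40), RPL31 (0.26) and the chromosome 2 row of RPL19 (0.16). None of these passed by limma.

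RGPC and neurons were both made from passage 36 cells, and P36 was the lowest NESC library in 30 of 38 members, against 26.4% of all genes. Against P36 alone, RGPC was lower in 36 and neurons in 36 of 38 members, against 44.8% and 52.7% of all genes. In 28 of 38 members RGPC lay below all 3 NESC libraries and neurons below RGPC, against 16% of all genes. The median level was 78.7% of P36 in RGPC and 54.5% in neurons. P36 was also the lowest NESC library in 40 of the 61 other ribosomal protein rows and in 23 of 39 translation factors and other TOP mRNAs. It was lowest in 11 of 51 ribosome assembly genes and in 16 of 69 mitochondrial ribosomal protein genes.

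P5 did not differ from P24 and P36 in any member by limma at the adjusted threshold, where 0% of all genes passed. In members 2 had an unadjusted p under 0.05, against 10.1% of all genes, and edgeR and DESeq2 called 0 members. Of all genes, edgeR called 15 higher and 13 lower, and DESeq2 72 and 63. The median log2 difference of P5 from P24 and P36 was 0.09. The 5 highest were the chromosome 2 row of RPL19 (1.22, from 29, 8 and 14 reads), RPL32 (0.81), RPL26L1 (0.75), the chromosome 1 row of RPL27 (0.59) and RPS16 (0.55). The 5 lowest were RPL38 (-0.85), the scaffold row of RPS29 (-0.40), RPS9 (-0.31), RPL31 (-0.30) and RPS4Y1 (-0.22). RPL38 and RPS29 turned to 0.88 and 1.24 on the deposited normalized counts.

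Paralogs of ribosomal proteins are close relatives that can take the place of the common form in a ribosome. RPL22L1, the paralog of RPL22, had 399, 308 and 339 FPKM in NESC, then 127 in RGPC and 34.4 in neurons. It fell by 3.30 on the log2 scale in neurons (SE 0.21, adjusted p = 0.00436 by limma). RPL22 had 1544, 1552 and 1071 FPKM in NESC, then 931 in RGPC and 680 in neurons, a log2 fold change of -1.01 ± 0.31 (SE) that did not pass. RPL22L1 stood at 19.8 to 31.7% of the RPL22 level in NESC, then 13.6% in RGPC and 5.06% in neurons. The difference between the fold changes of both genes was not tested.

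RPS27L, a paralog of RPS27 and a p53 target in human cells, had 804, 1104 and 908 FPKM in NESC, then 555 in RGPC and 180 in neurons, and fell by 2.36 on the log2 scale (SE 0.25, adjusted p = 0.00562 by limma). RPS27 itself has a scaffold row with 6 to 13 reads per library, which was not tested, and a chromosome 16 row with 34 to 87 reads. The chromosome 16 row had 254, 329 and 390 FPKM in NESC, then 312 in RGPC and 258 in neurons, with a log2 fold change of -0.31 ± 0.28 (SE) in neurons that did not pass. RPL36AL had 274, 326 and 294 FPKM in NESC, then 249 in RGPC and 131 in neurons, and fell by 1.18 (adjusted p = 0.0106 by limma). RPL7L1, which works in large subunit assembly in human cells, had 14.9, 13.9 and 10.9 FPKM in NESC, then 9.06 in RGPC and 8.58 in neurons and did not pass.

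RPL26L1 did not fall from NESC over RGPC to neurons, with 52.7, 31.0 and 30.7 FPKM in NESC, then 14.1 in RGPC and 34.3 in neurons. RGPC was the lowest library and the neuron value lay within the NESC range. None of its comparisons passed, and its fold change of -0.10 in neurons turned to 0.15 without P5. RPL26 had 3696, 3929 and 4308 FPKM in NESC, then 2609 in RGPC and 2172 in neurons, with a log2 fold change of -0.87 in neurons that did not pass. RGPC was also the lowest library, with neurons within the NESC range, for RPS15A and RPL17, whose rows lie outside the symbol pattern. RPS15A had 86.9, 55.9 and 59.7 FPKM in NESC, then 37.4 in RGPC and 59.0 in neurons. RPL17 had 299, 292 and 211 FPKM in NESC, then 189 in RGPC and 259 in neurons. The row with the symbol RPS4Y1 lies on the X chromosome and is described as the X isoform of S4, so the symbol and the description differ. It had 194, 215 and 238 FPKM in NESC, then 131 in RGPC and 133 in neurons, and fell by 0.69 on the log2 scale (adjusted p = 0.0412 by limma). RPL39L was among the rows below the read minimum.

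**Figure D4:**
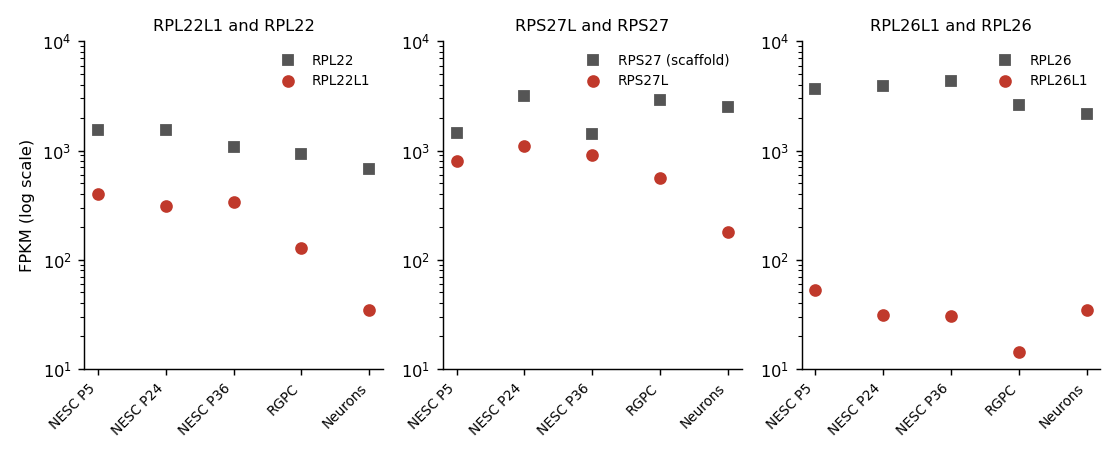
FPKM (log axis) of 3 paralogs (circles) and their parent genes (squares) in each of the 5 libraries. RPL22L1 and RPS27L were lowest in neurons, at 34.4 and 180 FPKM, whereas RPL26L1 was lowest in RGPC, at 14.1; the RPS27 row drawn is the scaffold row, with 6 to 13 reads per library.

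Some proteins have several rows, and their reads can be split between a gene and its copies. Of the 38 members, 18 were marked as possible copies, by a locus under 2000 bases or a repeated symbol. Paralogs made up 3 and 18 were neither, with 1 row counted in both of the first groups. The mark did not use rows outside the symbol pattern. RPL7, RPS10 and RPL31 therefore counted as neither, although each has such a row, and so did RPL38. The same mark serves wherever copies are left out below. Among the 18 that were neither, 12 fell in neurons, with a median log2 fold change of -1.16. For RPL7, a chromosome 17 row with a locus of 748 bases had 1690, 2050 and 1399 FPKM in NESC, then 986 in RGPC and 413 in neurons, and had a log2 fold change of -2.03 in neurons, against -1.87 for the member row. For RPL9, a chromosome 5 row had 192, 210 and 177 FPKM in NESC, then 128 in RGPC and 78.4 in neurons, with a log2 fold change of -1.29, against -1.27 for the member. All 4 of these changes passed. RPL15 differed between its rows. The member, with a locus of 616 bases on chromosome 11, had 2112, 2099 and 1854 FPKM in NESC, then 1428 in RGPC and 1227 in neurons. The chromosome 2 row had 149, 136 and 101 FPKM in NESC, then 97.7 in RGPC and 216 in neurons, with neurons above all 3 NESC libraries. Its log2 fold change of 0.77 did not pass (adjusted p = 0.0754 by limma).

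The 5 member rows with the lowest mean FPKM were RPL19 on chromosome 2, RPL28, RPS29 on chromosome 7, RPL7L1 and RPL32. All but RPL28 were marked as possible copies. Rows outside the symbol pattern were far higher for RPL32 and RPL19. A chromosome 2 row of RPL32 had 807, 752 and 382 FPKM in NESC, then 424 in RGPC and 416 in neurons. A chromosome 16 row of RPL19 had 1655, 1627 and 1400 FPKM in NESC, then 1080 in RGPC and 817 in neurons. RPL28 had 9.58, 9.85 and 4.77 FPKM in NESC, then 4.07 in RGPC and 4.27 in neurons. The RPL32 member row, with a locus of 409 bases on chromosome 9, had 24.9, 15.3 and 12.4 FPKM in NESC, then 13.7 in RGPC and 8.27 in neurons. No row among these 5 passed in any comparison.

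Genes of ribosome assembly were lower along with the ribosomal proteins. Of 51 tested genes of nucleolar assembly and rRNA transcription, 36 fell in neurons and 0 rose by limma, against 20.5% and 19.2% of all genes, with a median log2 fold change of -1.30. FBL, the rRNA methyltransferase fibrillarin, had 325, 291 and 298 FPKM in NESC, then 220 in RGPC and 59.6 in neurons (log2 fold change -2.33, adjusted p = 0.00436 by limma). GNL3, the nucleolar GTPase nucleostemin, had 215, 218 and 216 FPKM in NESC, then 88.3 in RGPC and 41.7 in neurons (-2.35, adjusted p = 0.00436 by limma). RRS1 fell by 2.75 and RRP9 by 2.24. UBTF, the RNA polymerase I factor, and RRN3 were at 0.46 and 0.16, which did not pass.

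Of 39 tested translation factors and other TOP mRNAs, 23 fell and 2 rose in neurons, against 20.5% and 19.2% of all genes, with a median of -0.93. Among those that fell were the elongation factor subunits EEF1D (log2 fold change -1.90) and EEF1B2 (-1.73) and the RNA-binding protein HNRNPA1 (-1.72). EEF1A2, the elongation factor form of neurons and muscle, had 19.7, 22.3 and 15.7 FPKM in NESC, then 40.3 in RGPC and 332 in neurons, and rose by 4.05 (adjusted p = 0.00436 by limma). EEF1A1, its common form, had a log2 fold change of -0.91 that did not pass. EIF4A2 rose by 1.38.

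Mitochondrial ribosomal proteins, which work in another compartment and have no part in the cytosolic ribosome, were lower as well. Of 69 tested, 42 fell and 0 rose in neurons by limma, against 20.5% and 19.2% of all genes, with a median log2 fold change of -0.82. MRPL23 had 150, 199 and 174 FPKM in NESC, then 131 in RGPC and 45.1 in neurons. MRPS27 fell by 1.61 and MRPS7 by 1.56, while MRPL14 was listed at 0 in neurons and at 8.96 to 19.6 FPKM in NESC. In RGPC the medians were -0.61 for assembly, -0.38 for translation factors and -0.40 for mitochondrial ribosomal proteins, and no gene of these lists passed.

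**Figure D5:**
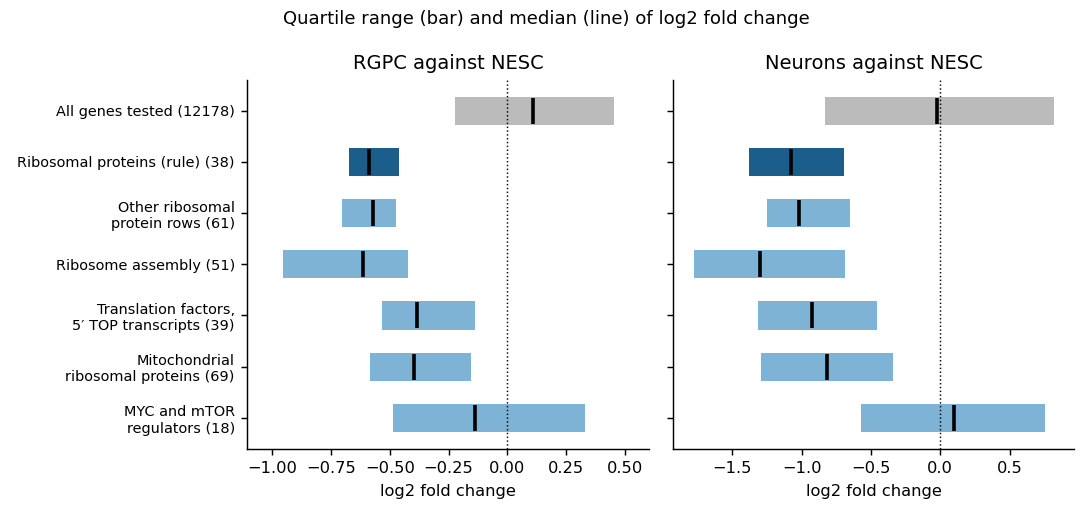
Median (line) and quartile range (bar) of the log2 fold change in RGPC (left) and neurons (right) against NESC for all genes tested and for 6 gene groups, with the number tested in brackets. The 38 ribosomal proteins have medians of -0.59 and -1.08, against 0.11 and -0.02 for all genes.

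Of 18 tested regulators of the MYC and mTOR pathways, 3 fell and 3 rose in neurons, which is near the 20.5% and 19.2% of all genes. MYCN, the MYC form of neural progenitors, had 128, 181 and 171 FPKM in NESC, then 84.3 in RGPC and 35.3 in neurons, and fell by 2.14 on the log2 scale (adjusted p = 0.00639 by limma). EIF4EBP1, which blocks cap-dependent translation when mTOR is inactive, had 182, 191 and 285 FPKM in NESC, then 85.3 in RGPC and 38.99 in neurons, and fell by 2.43 (adjusted p = 0.00706 by limma). MXD4, a MAX partner that opposes MYC, rose by 1.77 (adjusted p = 0.0448 by limma). MYC had 6.69, 7.97 and 16.6 FPKM in NESC, then 6.69 in RGPC and 19.3 in neurons and did not pass.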

How the data were processed

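The deposited gene table gives FPKM and a count per gene for each of the 5 libraries, per the file headers. Reads were aligned with TopHat2 2.0.9, per the submitters' processing notes; the sources used here do not give the genome build or the counting tool, so loci are printed as deposited. The deposited count columns hold a normalized signal, not raw counts: in each library nearly all values (99.994% or more, tolerance 0.1 read) were whole reads times 1 factor, so whole reads were recovered. The main test was limma 3.58.1 (R 4.3.3) with trend on log2(FPKM + 1), over 12178 genes with at least 1 FPKM and 20 reads in a library; the log2 fold change understates low genes. NESC, RGPC and neurons were 3 groups in 1 fit, and P5 against P24 and P36 was a separate fit with 4 groups. Alternatives included edgeR 4.0.16 and DESeq2 1.42.0 on recovered reads. The fits were tested on simulated data.

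Members and gene lists were chosen with earlier results of these data known. Named genes were the 5 highest and 5 lowest fold changes per comparison, the 5 highest and 5 lowest levels, the paralogs and their parents, stalk, 5S-particle, fusion and often-studied proteins, and up to 4 genes per list by size of change; EIF4A2, EEF1A1, UBTF and RRN3, as well as the second rows of RPL7, RPL9 and RPL15, were named after their values were seen. Some symbols were taken from an identifier table or a RefSeq peptide match. 1 gene that the naming rule covers is not reported here.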

Additional observations from a re-analysis of the deposited data

How the results depend on the processing

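No paired analysis was possible because RGPC and neurons have 1 library each. Of 38 members, 21 were called lower in neurons than in NESC, as were 2497 of all 12178 genes. The count was 11 with no minimum of reads (all genes: 1932 of 14571) and 8 with no filter (1767 of 16970). After quantile normalization it was 10 (2700 of 12178). It was 12 among the 18 rows that are neither copies nor paralogs. When each NESC library was left out, it was 4 to 22 (all genes: 1146 to 2168 of 12178). Against RGPC, 2 members were called lower in neurons (all genes: 1083 of 12178). The count was 0 with a pseudocount of 0.1 (992), median-of-ratios scaling (910), edgeR (904) and deposited normalized counts (1030). It was 0 with no minimum of reads (536 of 14571) and 1 with no filter (848 of 16970). When an NESC library was left out, it was 0 to 2 (all genes: 0 to 890 of 12178). Without a trend it was 0, with 1 higher (all genes: 919 lower and 697 higher). The counts for RGPC against NESC and for P5 were 0 in every alternative run. Leaving out NESC libraries could not be fitted for P5, nor could the fit of compared groups alone for neurons against RGPC. The tests on normalized counts and without short rows were chosen after seeing the data.

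The members' share of reads without copies and paralogs was 1.58, 1.81 and 1.38% in P5, P24 and P36, 1.12% in RGPC and 0.675% in neurons. Without the 10 other genes with the most reads in a library it was 2.30, 2.55, 1.93, 1.57 and 0.999%. The members' summed FPKM was 59747, 70957, 61390, 45021 and 42043 in the same order. It was 38480, 48275, 41202, 31079 and 26843 without copies and paralogs, and 47920, 50632, 42268, 33253 and 23097 without RPL38 and the scaffold row of RPS29. The libraries kept their order between NESC, RGPC and neurons in each.

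Among the gene fold changes printed here, signs turned in 20 values, over 9 gene and comparison pairs, none of them past the threshold. Signs of members without a printed value turned as well. For P5, 12 of 38 members were negative in the main fit, 8 with edgeR or DESeq2 and 5 after quantile normalization. In neurons against NESC, RPS20 was 0.0255 after quantile normalization, RPL26L1 ran from -0.23 to 0.15 when each NESC library was left out (0.15 without P5), and the chromosome 9 row of RPS10 from -1.54 to 0.23 (0.23 without P36). RPL38 was -0.0669 after quantile normalization, -0.68 with edgeR, -0.65 with DESeq2, -0.63 on normalized counts and from -0.19 (without P5) to 0.26 when each NESC library was left out. The scaffold row of RPS29 was -0.43, -0.40 and -0.30 with edgeR, DESeq2 and normalized counts. In RGPC, RPS9 and RPS26 were 0.11 and 0.0254 after quantile normalization. For P5, RPL38 was 0.46 after quantile normalization and 0.89, 0.91 and 0.88 with edgeR, DESeq2 and normalized counts, and RPS29 was 1.29, 1.31 and 1.24 with the latter 3. The cause was not tested. Depth limits the 9 members with under 100 reads in every library.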
